A study of Mus musculus with 12 samples.

Results

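The transcripts described here encode inflammatory cytokines, 2 enzymes that inflammatory signals induce, and proteins typical of neutrophils. They are Il1a, Il1b, Il6 and Tnf, the antagonist Il1rn, the enzymes Nos2 and Ptgs2, the alarmins S100a8 and S100a9, and the receptor Csf3r. The 10 genes were chosen by mouse symbol, and all 10 were found among the 55401 genes of the deposited table. They were measured by RNA sequencing of dermis, the connective tissue layer of skin, from C57BL/6 mice aged 6 weeks in a wound model. Wild-type (WT) mice and mice lacking Cthrc1 (Cthrc1-/-), which encodes a secreted collagen triple helix repeat protein, were sampled on day 0 and day 7, each of these 4 groups being represented by 3 biological replicates. The labels do not give the sex of the mice, how the deletion was made, or whether 1 animal gave more than 1 sample.

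As background, interleukin-1 alpha and interleukin-1 beta bind the same receptor and start a signal that ends in NF-kB and AP-1 activity, and the product of Il1rn occupies that receptor without signalling. Interleukin-6 and tumour necrosis factor spread the response to other cells, while inducible nitric oxide synthase and inducible cyclooxygenase make nitric oxide and prostaglandin precursors. S100A8 and S100A9 form calprotectin, which neutrophils hold in bulk and which keratinocytes of wounded or inflamed epidermis also make. The Csf3r product receives granulocyte colony-stimulating factor on neutrophils and their precursors.

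Levels are given as FPKM, a read count corrected for transcript length and library size, and replicates are always listed in the order 1 to 3. Differences are log2 changes from the quasi-likelihood test of edgeR on the deposited counts, with a standard error (SE). P-values were adjusted over the 14313 genes that averaged 1 FPKM or more, and "called" means an adjusted p under 0.05. All 10 genes passed that filter, Nos2 only through a single library: its mean was 7.73 FPKM over 12 samples and 0.616 FPKM without WT day 7 replicate 1. Total counts were 48329668 to 76938132 per sample. Cthrc1 itself had at most 15 counts in each Cthrc1-/- library and at least 1813 in each WT library. Fibroblast and dermis markers were above 0 in every library, with sums of 361 to 6527 FPKM over 8 genes. These are bulk samples, in which fewer cells of a type and less RNA per cell cannot be told apart.

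WT day 7 replicate 1 stood apart from all other libraries. It held the highest level of 9 of the 10 genes among the 12 samples, Il1rn being the exception, against 14.8% of all genes tested. Relative to the mean of the other WT day 7 replicates it was 143-fold higher for Nos2, 50.7-fold for Csf3r, 40.5-fold for Il1b, 25.8-fold for Ptgs2, 13.4-fold for S100a9, 12.3-fold for Il1a, 11.04-fold for Il6, 9.21-fold for S100a8 and 3.22-fold for Tnf. Comparisons of the 10 genes, and counts of called genes in the lists set beside them, are therefore given with that library and without it. A second departure was smaller: Cthrc1-/- day 0 replicate 3 was the lowest of its group for all 10 genes, as it was for 38.8% of all genes tested.

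**Figure D1:**
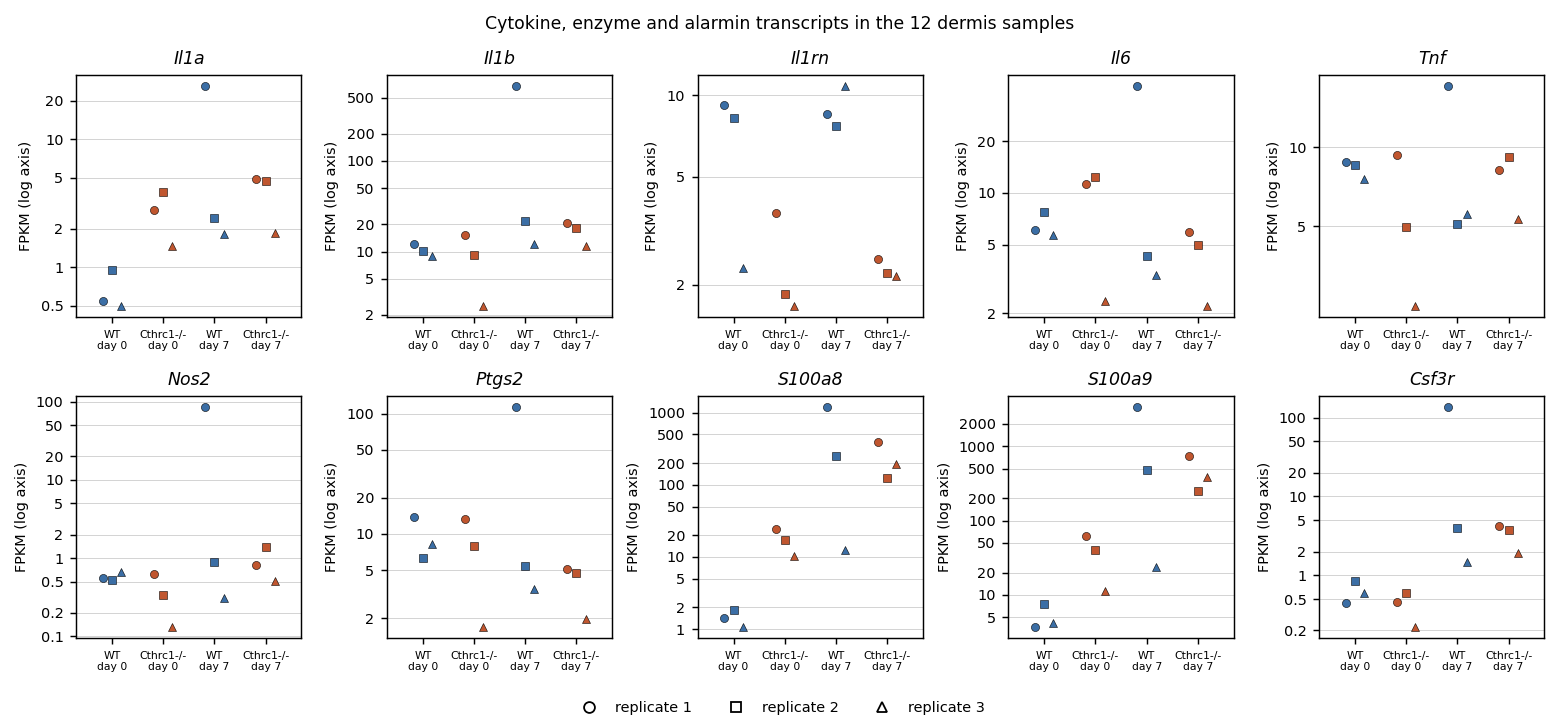
FPKM of each of the 10 genes (vertical log axes) in the 4 groups of genotype and day (horizontal), 1 point per library and 1 symbol shape per replicate number. WT day 7 replicate 1 is the top point in every panel other than Il1rn, where the WT day 7 samples (7.66 to 10.8 FPKM) lie above the Cthrc1-/- day 7 samples (2.15 to 2.50 FPKM).

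The cytokines come first. Il1b, the secreted form that needs cleavage by an inflammasome, was measured at 12.1, 10.2 and 8.99 FPKM in WT and 15.1, 9.06 and 2.50 FPKM in Cthrc1-/- on day 0. On day 7 it reached 680.3, 21.5 and 12.04 FPKM in WT and 20.8, 18.2 and 11.4 FPKM in Cthrc1-/-. WT replicate 1 was thus 31.6-fold above the next highest of all samples, and among the other 5 day 7 libraries the genotypes overlapped. The day 7 log2 change between genotypes was -4.03 (SE 1.39, edgeR adjusted p 0.907) with that library and -0.03 (SE 0.600, edgeR adjusted p 1) without it.

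Il1a encodes the form of interleukin-1 that epithelial cells store and release on damage. Its day 0 levels were 0.544, 0.958 and 0.499 FPKM in WT and 2.82, 3.85 and 1.48 FPKM in Cthrc1-/-, so that the groups did not overlap. Day 7 levels were 26.2, 2.44 and 1.82 FPKM in WT against 4.90, 4.73 and 1.87 FPKM in Cthrc1-/-, and these did overlap. Here the log2 change between genotypes on day 0 was 1.93 (SE 0.971, edgeR adjusted p 0.219). Without WT day 7 replicate 1, which is in neither group but enters the common estimate of spread, it was 1.97 (SE 0.484) and was called (edgeR adjusted p 0.0369).

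Il6 was found at 6.13, 7.72 and 5.73 FPKM in WT and 11.3, 12.3 and 2.35 FPKM in Cthrc1-/- on day 0, and at 42.2, 4.28 and 3.36 FPKM in WT and 5.91, 4.97 and 2.20 FPKM in Cthrc1-/- on day 7. Apart from WT replicate 1, day 7 libraries held 2.20 to 5.91 FPKM of Il6 and WT day 0 libraries 5.73 to 7.72 FPKM. Tnf varied least of the cytokines. It stood at 8.79, 8.58 and 7.56 FPKM in WT and 9.36, 4.97 and 2.49 FPKM in Cthrc1-/- on day 0, and at 17.2, 5.09 and 5.58 FPKM and 8.18, 9.18 and 5.35 FPKM on day 7. The genotypes overlapped on both days for both genes, and neither was called in any comparison. On day 7 the log2 change between genotypes was -2.11 for Il6 and -0.43 for Tnf with all libraries, and 0.17 and 0.49 without WT replicate 1.

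Il1rn, which encodes the interleukin-1 receptor antagonist, behaved differently from the cytokines it opposes. It was present at 9.17, 8.25 and 2.30 FPKM in WT and 3.69, 1.84 and 1.67 FPKM in Cthrc1-/- on day 0. On day 7 it was present at 8.54, 7.66 and 10.8 FPKM in WT and 2.50, 2.21 and 2.15 FPKM in Cthrc1-/-. Every Cthrc1-/- day 7 library lay below every WT day 7 library, and WT replicate 1 was in the middle of its group. The mean was 9.02 ± 1.65 FPKM (SD, n = 3) in WT and 2.28 ± 0.188 FPKM (SD, n = 3) in Cthrc1-/-. With edgeR the day 7 log2 change was -2.05 (SE 0.476), with an unadjusted p of 0.0015 and an edgeR adjusted p of 0.631, and was not called. Without WT replicate 1 it was -2.03 (SE 0.518, edgeR adjusted p 0.856). DESeq2 gave a log2 change of -2.06 and did call it (DESeq2 adjusted p 0.00526). On day 0 the log2 change was -1.53 (SE 0.469, edgeR adjusted p 0.0766), with WT replicate 3 inside the Cthrc1-/- range. The call there came with DESeq2 (adjusted p 0.0143) or when Cthrc1-/- day 0 replicate 1 was left out of edgeR (adjusted p 0.0280).

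The upstream sequences of 2 cytokine genes are shown because Il1b and Il6 were both raised in WT day 7 replicate 1 but by different amounts. They are the 250 bases before the RefSeq start site on GRCm38.p6, read 5′ to 3′ on the gene's strand, at chr2:129371140-129371389 (minus strand) for Il1b and chr5:30012864-30013113 (plus strand) for Il6. Capitals mark matches on either strand to 3 motifs: TGANTCA for AP-1, TTNNGNAA for C/EBP and GGNNTTTCC for NF-kB.
Il1b: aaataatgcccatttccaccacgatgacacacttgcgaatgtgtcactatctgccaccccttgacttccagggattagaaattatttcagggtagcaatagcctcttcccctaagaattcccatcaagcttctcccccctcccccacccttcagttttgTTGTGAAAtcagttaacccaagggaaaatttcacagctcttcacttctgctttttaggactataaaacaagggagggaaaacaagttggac
Il6: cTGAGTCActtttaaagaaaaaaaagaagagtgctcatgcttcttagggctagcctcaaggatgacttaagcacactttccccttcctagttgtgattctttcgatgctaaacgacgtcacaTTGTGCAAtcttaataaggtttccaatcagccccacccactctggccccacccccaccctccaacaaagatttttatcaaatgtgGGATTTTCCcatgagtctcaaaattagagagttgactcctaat
The Il6 window held 1 match to each motif, whereas the Il1b window held 1 C/EBP match and neither of the others. Across 32851 RefSeq windows of this length, 6.75% held the AP-1 letters, 36.8% the C/EBP letters and 4.93% the NF-kB letters. RefSeq windows were matched for 9 of the 10 genes, all but Nos2. The C/EBP letters were in a window of 8 of these 9, Csf3r having none of the 3 motifs. The AP-1 letters were in windows of Il1a, Il1rn and Il6, and the NF-kB letters in windows of Il1rn and Il6. Such a match describes the letters and not a bound site.

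Both inducible enzymes were highest in WT day 7 replicate 1. Nos2, inducible nitric oxide synthase, had 0.560, 0.530 and 0.662 FPKM in WT and 0.637, 0.343 and 0.132 FPKM in Cthrc1-/- on day 0. On day 7 it had 86.0, 0.887 and 0.314 FPKM in WT and 0.816, 1.39 and 0.506 FPKM in Cthrc1-/-. The single WT library was 61.9-fold above the next highest sample, which was a Cthrc1-/- day 7 library. Ptgs2, inducible cyclooxygenase, was measured at 13.9, 6.32 and 8.17 FPKM in WT and 13.2, 8.01 and 1.68 FPKM in Cthrc1-/- on day 0, and at 114, 5.41 and 3.46 FPKM and 5.12, 4.71 and 1.98 FPKM on day 7. Apart from the same library, every day 7 sample was below every WT day 0 sample for Ptgs2. The day 7 log2 change between genotypes went from -5.21 (SE 1.77) to 0.55 (SE 0.680) for Nos2 and from -3.58 (SE 1.32) to -0.20 (SE 0.727) for Ptgs2 when that library was left out. None of these 4 values was called, with edgeR adjusted p of 0.907 for both genes with all libraries and 1 for both without it.

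S100a8 and S100a9 had the largest day effects of the 10 genes in each genotype. S100a8 was at 1.44, 1.87 and 1.07 FPKM in WT and 24.1, 17.3 and 10.3 FPKM in Cthrc1-/- on day 0. By day 7 it was at 1210.2, 250.5 and 12.5 FPKM in WT and 398, 124 and 194 FPKM in Cthrc1-/-. Every Cthrc1-/- day 0 library therefore lay above every WT day 0 library, and WT day 7 replicate 3 lay within the Cthrc1-/- day 0 range. S100a9 was at 3.69, 7.46 and 4.20 FPKM in WT and 62.7, 40.5 and 11.4 FPKM in Cthrc1-/- on day 0, and at 3409, 483 and 24.0 FPKM in WT and 750, 248 and 385 FPKM in Cthrc1-/- on day 7. As with S100a8, the genotypes did not overlap on day 0, and the same WT day 7 library was at the top. Across the 12 samples the Pearson correlation of log2(FPKM + 1) between the 2 genes was 0.99, and it was again 0.99 over the 11 samples without WT day 7 replicate 1. This is a description over samples that share a group structure.

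The alarmin pair lies on chromosome 3 in opposite orientation with start sites 26743 bases apart, S100a8 at chr3:90668978-90670035 on the plus strand and S100a9 at chr3:90692632-90695721 on the minus strand (GRCm38, GENCODE M21). Their upstream sequences are shown because this pair had the highest correlation of any pair among the 10 genes. For S100a9 it is the 250 bases before the RefSeq start, chr3:90695722-90695971. For S100a8 only the bases before the earlier GENCODE start are given, chr3:90668821-90668977. Capitals again mark the C/EBP letters TTNNGNAA on either strand.
S100a8: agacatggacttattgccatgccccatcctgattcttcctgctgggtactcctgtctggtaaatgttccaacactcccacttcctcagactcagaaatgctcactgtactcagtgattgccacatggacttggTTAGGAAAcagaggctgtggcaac
S100a9: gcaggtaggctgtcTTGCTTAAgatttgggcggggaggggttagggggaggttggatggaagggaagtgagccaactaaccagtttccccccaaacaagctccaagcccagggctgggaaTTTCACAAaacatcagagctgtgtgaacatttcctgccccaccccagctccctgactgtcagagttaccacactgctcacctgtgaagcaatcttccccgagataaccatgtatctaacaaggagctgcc
S100a8 held 1 match in the sense direction and S100a9 held 2 in the antisense direction, and neither window held the AP-1 or NF-kB letters.

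Csf3r, the receptor for granulocyte colony-stimulating factor, had 0.446, 0.854 and 0.593 FPKM in WT and 0.453, 0.599 and 0.220 FPKM in Cthrc1-/- on day 0. It had 137.6, 3.96 and 1.46 FPKM in WT and 4.18, 3.77 and 1.93 FPKM in Cthrc1-/- on day 7. All 6 day 7 libraries were above all 6 day 0 libraries, and the genotypes overlapped on each day.

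Taking the genotypes on day 0, none of the 10 genes was called by edgeR, against 5.78% of all genes tested. At an unadjusted p under 0.05 there were 2, S100a8 and Il1rn, against 28.4% of all genes. DESeq2 called 3 (S100a8, S100a9 and Il1rn, against 19.6% of all genes), with adjusted p not given for Nos2, Il1b, Il6 and Csf3r, and limma on log2(FPKM + 1) called 0 (against 4.20%). The log2 change was 3.45 for S100a8 (SE 1.23, edgeR adjusted p 0.105) and 2.82 for S100a9 (SE 1.32, edgeR adjusted p 0.190). Without WT day 7 replicate 1, S100a8 and Il1a were called (edgeR adjusted p 0.0481 and 0.0369), against 11.0% of all genes. S100a8 was also called when WT day 7 replicate 3 was left out (edgeR adjusted p 0.0457). Il1a, S100a8 and S100a9 were the 3 genes whose Cthrc1-/- libraries all lay above the WT libraries, as did 21.5% of all genes. The median log2 change of the 10 genes was -0.33, and that of all genes tested was -0.05.

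Several marker groups moved with genotype on day 0. Hair follicle markers summed to 5.17 to 8.29 FPKM in WT and 233 to 11497 FPKM in Cthrc1-/-, and all 8 were called higher. Of 11 epidermal and wound keratinocyte markers 3 were called higher, Sprr1b (log2 change 4.43), Krt16 (2.90) and Krt17 (1.18), with edgeR adjusted p of 0.0245, 0.0416 and 0.0311. Their sum was 8558 to 9342 FPKM in WT and 6463 to 11334 FPKM in Cthrc1-/-. Fibroblast and dermis markers summed to 4910 to 6527 FPKM in WT and 361 to 2482 FPKM in Cthrc1-/-, with Col1a2 called lower of 8. Neutrophil markers summed to 57.3 to 60.9 FPKM in WT and 15.4 to 53.0 FPKM in Cthrc1-/-, with none of the 14 tested called, 6 of 14 log2 changes above 0 and a median of -0.11. Macrophage and monocyte markers summed to 429 to 453 FPKM in WT and 138 to 325 FPKM in Cthrc1-/-. All 15 tested had log2 changes below 0 (median -0.91), and 1, Mertk, a receptor for the uptake of dead cells, was called lower (edgeR adjusted p 0.0376). Pan-leukocyte markers summed to 119.6 to 144 FPKM in WT and 36.7 to 115 FPKM in Cthrc1-/-, all 8 with log2 changes below 0 and 0 called. Of 5 mast cell markers tested, Kit was called higher (log2 change 2.13, edgeR adjusted p 0.0288). It was the only 1 of the 5 with a log2 change above 0, and their median was -0.45. Without WT day 7 replicate 1 the hair follicle, keratinocyte, neutrophil and mast cell counts were the same, while 3 macrophage, 1 pan-leukocyte and 2 fibroblast markers were called lower. Of all genes tested, 11.0% were called in either direction in that fit, against 5.78% with all libraries. Ly6g was at 0 in all 6 libraries, which with 3 fragments as the limit, each taken as 4 deposited counts, allows up to 0.156 to 0.248 CPM (the count scaled to library size), counting error only. The part of these cell types in the alarmin, Il1a and Il1rn values was not tested.

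On day 7 none of the 10 genes was called between genotypes, against 0.0210% of all genes tested by edgeR. At an unadjusted p under 0.05 there were 5 with all libraries, against 5.46% of all genes, and 1, Il1rn, without WT replicate 1, against 3.60%. By adjusted p that smaller set of libraries gave 0 as well, against 0.0140% of all genes. DESeq2 called 1, Il1rn, against 0.436% of all genes, again with no adjusted p for Nos2, Il1b, Il6 and Csf3r, and limma on log2(FPKM + 1) called 0 (against 0.0559%). All 10 log2 changes were below 0 with the 12 samples, with a median of -2.08 where all genes tested had -0.0055. Without WT replicate 1, 7 of 10 were above 0, with a median of 0.37 where all genes had -0.0038. The log2 change of S100a8 was -1.23 (SE 1.10) with that library and 0.81 (SE 0.960) without it, and that of S100a9 was -1.70 (SE 1.25) and 0.81 (SE 1.06). For these 2 genes limma on log2(FPKM + 1) with all libraries gave 0.41 and 0.27, so their direction depended on the scale as well as on 1 library. The log2 change of Csf3r went from -4.06 (SE 1.41) to 0.25 (SE 0.557), and that of Il1a from -1.59 (SE 0.948) to 0.82 (SE 0.530). Il1rn was the single gene of the 10 whose groups did not overlap, lower in Cthrc1-/- as were 2.67% of all genes.

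**Figure D2:**
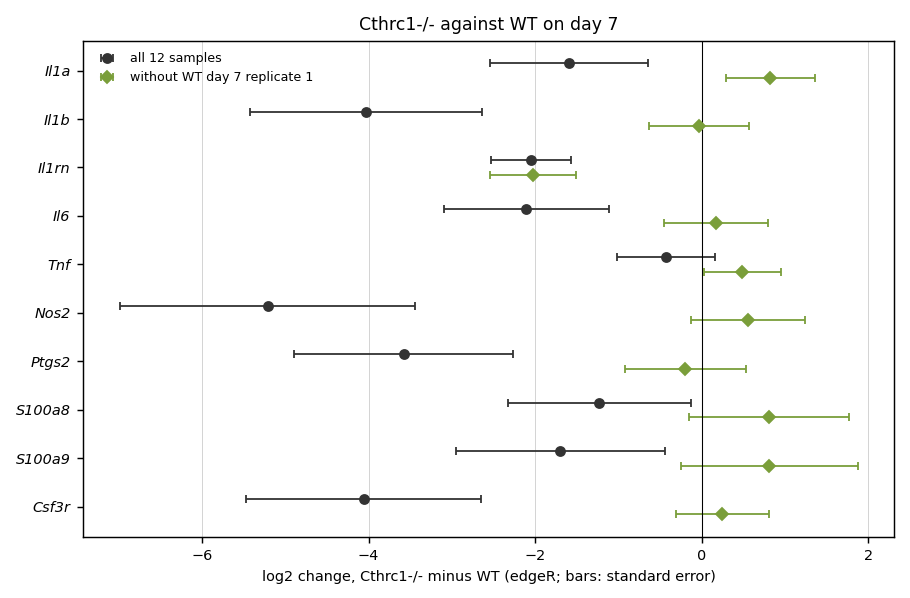
Log2 change, Cthrc1-/- minus WT on day 7 (horizontal, edgeR), for each of the 10 genes, as points with bars of 1 standard error, once with all 12 samples and once without WT day 7 replicate 1. Il1rn stays at nearly the same value (-2.05 and -2.03), whereas Nos2 moves from -5.21 to 0.55.

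Markers of blood cells moved with the same WT day 7 library. The 20 neutrophil markers summed to 1098 FPKM there and to 15.4 to 60.9 FPKM in the other 11 libraries, and 16 of the 20 were highest there. Ly6g, a surface protein of mature mouse neutrophils, was at 19.6 FPKM, at 0 in 9 libraries and at most 0.101 FPKM in the others. Cxcr2, the neutrophil chemokine receptor, was at 52.4 FPKM against at most 2.45 FPKM elsewhere, and Trem1 at 65.9 FPKM against at most 1.16 FPKM. The azurophil granule genes Elane and Mpo, transcribed early in neutrophil maturation, were at 0 and 0.107 FPKM there, against at most 0.326 and 0.170 FPKM elsewhere. All 8 pan-leukocyte markers and 14 of 16 macrophage and monocyte markers were also highest in that library, with sums of 1156 and 2177 FPKM against at most 248 and 963 FPKM elsewhere. None of the 8 T cell, 6 mast cell or 11 keratinocyte markers was highest there, and the keratinocyte sum was 3172 FPKM against 6463 to 11567 FPKM in the other libraries. The part of these cell types in the high cytokine levels was not tested. In the other day 7 libraries the neutrophil sums overlapped between genotypes, at 47.7 and 56.4 FPKM in WT and 41.5 to 58.5 FPKM in Cthrc1-/-.

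**Figure D3:**
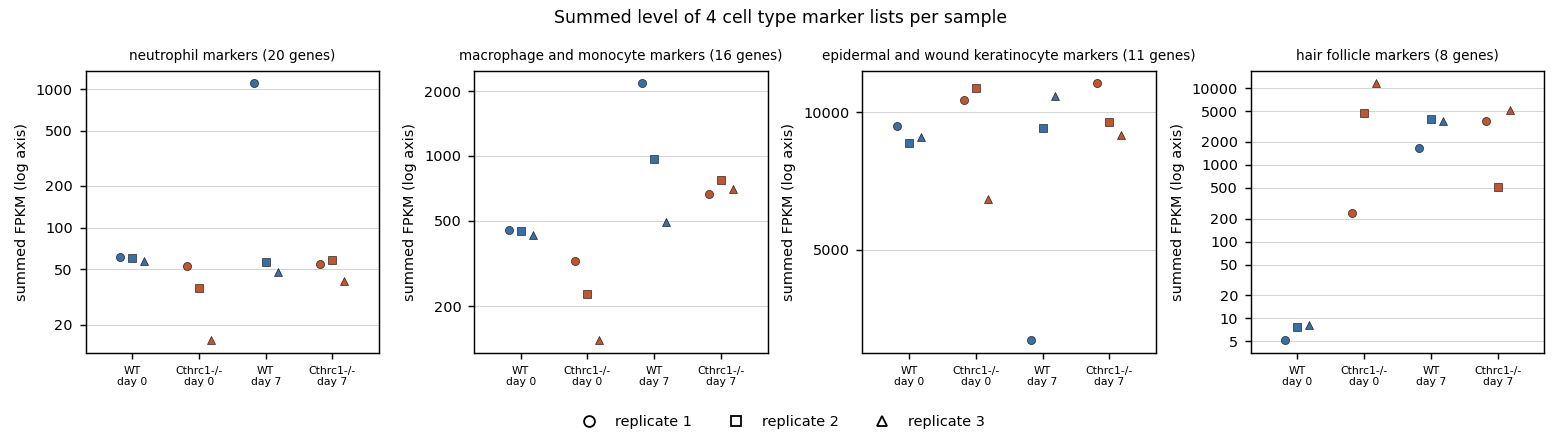
Summed FPKM (vertical log axes) of the neutrophil, macrophage and monocyte, keratinocyte and hair follicle marker lists in the 4 groups (horizontal), 1 point per library. WT day 7 replicate 1 is the highest library for neutrophil markers (1098 FPKM) and the lowest for keratinocyte markers (3172 FPKM), and hair follicle markers are below 10 FPKM only in WT day 0.

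Between days in WT, 4 of the 10 genes rose by edgeR, against 6.04% of all genes tested called higher. S100a8 rose by a log2 change of 8.29 (SE 1.505, edgeR adjusted p 0.00971) and S100a9 by 7.92 (SE 1.66, edgeR adjusted p 0.0162). Csf3r rose by 6.18 (SE 1.57, edgeR adjusted p 0.0314) and Il1a by 3.84 (SE 1.04, edgeR adjusted p 0.0388). For these same 4 genes every WT day 7 library was above every WT day 0 library, as for 29.8% of all genes. When WT day 7 replicate 1 was left out, 2 of them were still called, against 5.01% of all genes called higher: S100a8 at 6.35 (SE 1.10, edgeR adjusted p 0.0127) and S100a9 at 5.50 (SE 1.16, edgeR adjusted p 0.0237). Csf3r was then at 1.97 (edgeR adjusted p 0.0594) and Il1a at 1.52 (edgeR adjusted p 0.09996), while Nos2, Il6, Ptgs2 and Tnf went below 0 at -0.09, -0.92, -1.23 and -0.79. S100a8 was called in each of the 12 fits that left out 1 library, and S100a8 and S100a9 in each of the 10 other alternatives. Csf3r was called in 5 of 9 of these and Il1a in 5 of 10. Both lost the call with limma at either pseudocount, with the replicate block and in the fit of only the groups compared (adjusted p 0.0730 to 0.109 for Csf3r and 0.0549 to 0.0919 for Il1a), and Il1a also with no filter (edgeR adjusted p 0.0527). S100a9 lost its call without any 1 of the WT day 0 replicates (edgeR adjusted p 0.0622 to 0.0699), as did Csf3r (0.0975 to 0.109) and Il1a (0.0983 to 0.128). Il1a also lost it without Cthrc1-/- day 0 replicate 2 or Cthrc1-/- day 7 replicate 1 or 2 (edgeR adjusted p 0.0544 to 0.0579). Nos2 and Il1b were called when WT day 7 replicate 3 was left out (edgeR adjusted p 0.0266 and 0.0277), but replicate 1 is then 1 of 2 libraries in its group, and Nos2 passed the filter only through it. Of 14 neutrophil markers tested, 6 rose between days in WT, and 1, Clec4d, was called without WT day 7 replicate 1 (log2 change 3.15, edgeR adjusted p 0.0135). All 8 hair follicle markers rose with the 12 samples, and 7 were called without that library. The part of either in the day effects was not tested.

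In Cthrc1-/- none of the 10 was called between days, against 1.46% of all genes tested. At an unadjusted p under 0.05 there were 2, against 18.1% of all genes. DESeq2 called 2, S100a8 and S100a9 (adjusted p 0.00583 and 0.0236), against 9.92% of all genes, while limma on log2(FPKM + 1) called 0 (against 5.41%). S100a8, S100a9 and Csf3r were higher in every day 7 library than in every day 0 library, as were 21.5% of all genes, with log2 changes of 3.61 (SE 1.20, edgeR adjusted p 0.151), 3.398 (SE 1.34, edgeR adjusted p 0.216) and 2.77 (SE 1.36, edgeR adjusted p 0.313). Csf3r was called at 2.83 (SE 0.535, edgeR adjusted p 0.0200) without WT day 7 replicate 1, as 1 of the 10 genes against 6.36% of all genes, and without WT day 7 replicate 3 S100a8 was called at 3.61 (edgeR adjusted p 0.0389). Summed macrophage and monocyte markers and summed pan-leukocyte markers were higher in every day 7 library than in every day 0 library here. Macrophage and monocyte markers summed to 138 to 325 FPKM on day 0 and 667 to 770 FPKM on day 7, and pan-leukocyte markers to 36.7 to 115 FPKM and 199.7 to 248 FPKM. Neutrophil markers summed to 15.4 to 53.0 FPKM and 41.5 to 58.5 FPKM, so the days overlapped for these. With all libraries none of these markers was called between days in Cthrc1-/-. In the fit without WT day 7 replicate 1 that called Csf3r, 3 of 14 neutrophil (among them Clec4d at 3.27 and Mmp9 at 2.31), 6 of 15 macrophage and 3 of 8 pan-leukocyte markers were called higher, and 0 lower. The part of these cells in the values of Csf3r and the alarmins was not tested. The remaining 7 genes had log2 changes from -1.17 for Il6 to 1.09 for Nos2.

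**Figure D4:**
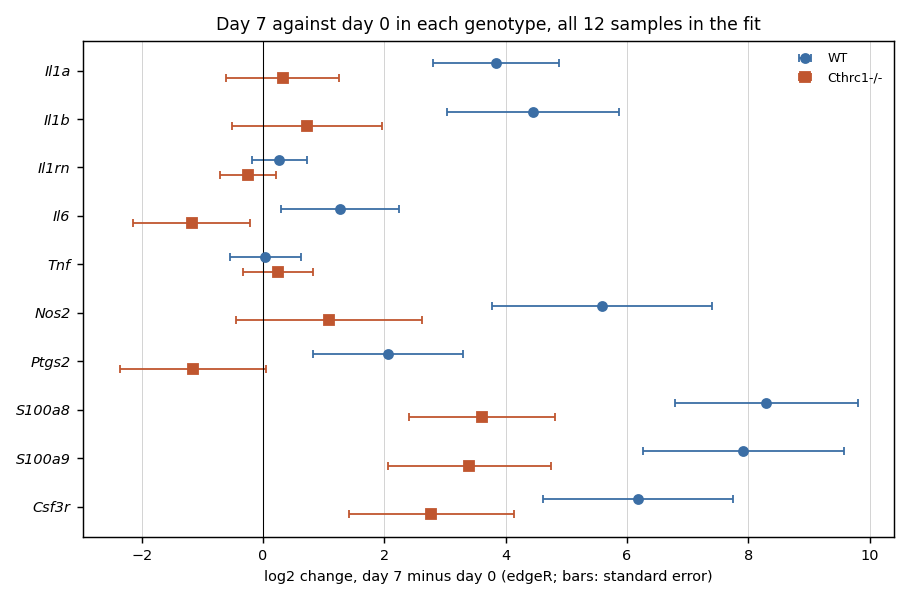
Log2 change, day 7 minus day 0 (horizontal, edgeR, all 12 samples), in WT and in Cthrc1-/- for each of the 10 genes, as points with bars of 1 standard error. S100a8 has the largest value in each genotype, 8.29 in WT and 3.61 in Cthrc1-/-.

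The difference between those day effects was tested as an interaction, Cthrc1-/- day effect minus WT day effect, and none of the 10 was called, against 0.0140% of all genes. At an unadjusted p under 0.05 there were 3 (S100a8, Il1a and S100a9), against 15.1% of all genes. DESeq2 called 1, S100a8 (adjusted p 0.0241, against 4.79% of all genes), and limma on log2(FPKM + 1) called 0 (against 0.0279%). The interaction was -4.68 for S100a8 (SE 1.64, edgeR adjusted p 0.245), -4.52 for S100a9 (SE 1.82, edgeR adjusted p 0.287) and -3.52 for Il1a (SE 1.36, edgeR adjusted p 0.277). Without WT day 7 replicate 1 these were -2.69 (SE 1.29), -2.04 (SE 1.399) and -1.14 (SE 0.695), and none had an unadjusted p under 0.05.

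S100a8 was then set beside keratins of wound epidermis and genes of the neutrophil surface. Krt6b was at 19.7, 10.97 and 10.4 FPKM in WT and 75.2, 65.6 and 36.2 FPKM in Cthrc1-/- on day 0, and at 143, 799.6 and 94.8 FPKM and 896, 160.3 and 215 FPKM on day 7. Its highest WT library was replicate 2, not replicate 1. In WT, Sprr1b, Krt6b and Krt16 rose between days, with log2 changes of 4.67, 4.46 and 3.44 (edgeR adjusted p 0.00856, 0.0177 and 0.0137). They were 5.21, 4.91 and 3.87 without WT day 7 replicate 1, all called. Of all genes tested, 6.04% were called higher between days in WT with all libraries and 5.01% without that library. Sprr1b, Krt6b and Krt16 were the called ones of 11 keratinocyte markers, of which 5 had a log2 change above 0 (median -0.15) with all libraries and 6 (median 0.24) without that one. Among neutrophil genes, Ly6g was at 0 in every day 0 library, while Cxcr2 was at 0.242, 0.306 and 0.111 FPKM in WT and 0.781, 0.689 and 0.178 FPKM in Cthrc1-/- on day 0. The genotypes overlapped for Cxcr2, with a log2 change of 1.24 (SE 1.35, edgeR adjusted p 0.570) and 1.28 (SE 0.640, edgeR adjusted p 0.191) without WT day 7 replicate 1.

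**Figure D5:**
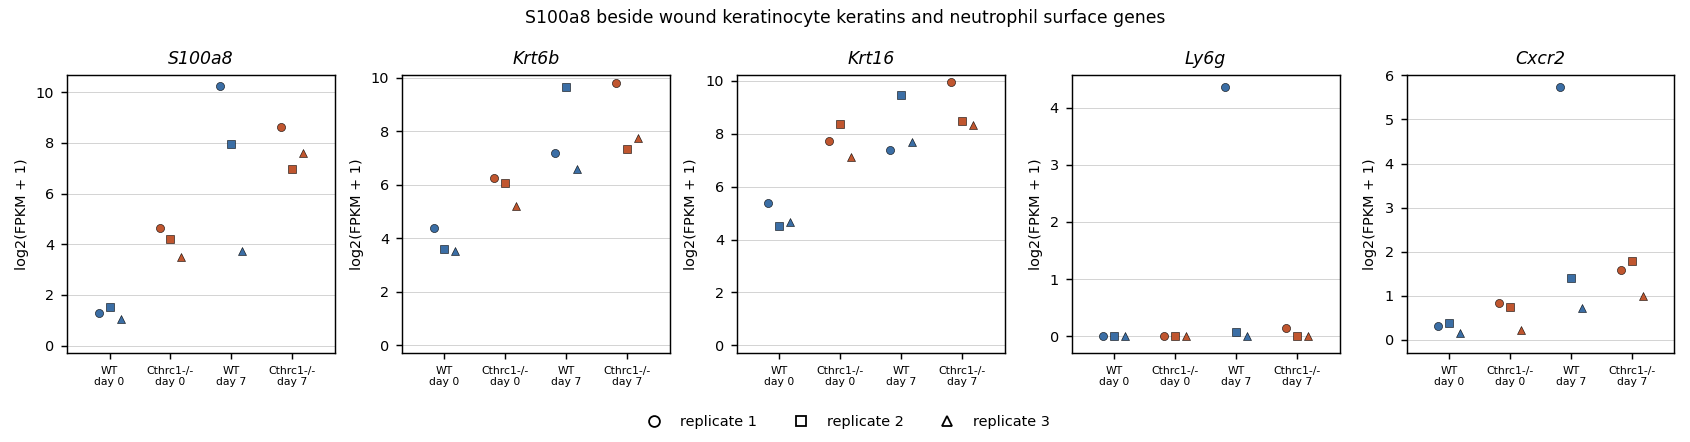
Log2(FPKM + 1) of S100a8, the keratins Krt6b and Krt16 and the neutrophil surface genes Ly6g and Cxcr2 (vertical, each panel with its own scale) in the 4 groups (horizontal), 1 point per library. Cthrc1-/- day 0 lies above WT day 0 for S100a8, Krt6b and Krt16, as for 21.5% of all genes tested, and Krt6b was not called there. The sum of all 11 keratinocyte markers overlapped between genotypes on day 0 (8558 to 9342 FPKM in WT, 6463 to 11334 FPKM in Cthrc1-/-). The genotypes overlap for Cxcr2. Ly6g is at 0 in both day 0 groups and in 9 libraries in all, so it cannot separate these groups. The genes shown were chosen with values seen.

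The genes whose log2(FPKM + 1) was most like that of 3 members were listed, by Pearson correlation over the 12 samples among 7017 genes with a mean of at least 5 FPKM. For Il1b they were Fmnl1, Srgn, Tlr2 and Cxcl2 (0.99, 0.99, 0.99 and 0.99), and for Nos2 they were Mirt2, Cxcl3, Trem1 and Hdc (0.99, 0.99, 0.98 and 0.98). For S100a8 they were Glrx, Rab11fip5, Cotl1 and Rab5c (0.97, 0.96, 0.95 and 0.94). Over the 11 samples without WT day 7 replicate 1, the 4 most like S100a8 were Stfa2, Sprr2d, Glrx and Krt6b (0.98, 0.97, 0.96 and 0.96). Only Fmnl1 was then still among the 4 for Il1b, and none of the 4 for Nos2 was. All these values share the same few groups and libraries. Nos2 passed the filter only through WT day 7 replicate 1, so its values over 12 samples mainly describe that library. Trem1 and Hdc held at most 1.16 and 3.58 FPKM in the other libraries, so both reached a mean of 5 FPKM only through it. Among the members, Nos2 and Il1b had 0.96 over 12 samples and 0.79 over 11, and Il6 and Ptgs2 had 0.94 and 0.83.

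The wider interleukin-1 family was examined through 19 listed ligands, receptors and signalling genes. Between genotypes on day 0, 2 were called higher in Cthrc1-/- and 0 lower, against 5.78% of all genes tested called in either direction. Il1f6, which encodes the epithelial cytokine interleukin-36 alpha, was at 0, 0.0897 and 0.547 FPKM in WT and 8.09, 7.53 and 2.33 FPKM in Cthrc1-/- (log2 change 4.72, SE 1.13, edgeR adjusted p 0.0442). Pycard, the inflammasome adaptor, had a log2 change of 0.48 (SE 0.118, edgeR adjusted p 0.0454). The list's median log2 change was -0.25. In the fit without WT day 7 replicate 1, where 11.0% of all genes tested were called, Il1f8 was also called higher (log2 change 2.32, edgeR adjusted p 0.0453). Il1f8 encodes interleukin-36 beta. On day 7 none was called between genotypes with or without that library, and 1 was called between days in WT: Il1rl1, the interleukin-33 receptor, with 25.7, 1.38 and 0.847 FPKM on day 7 and 0.350, 0.257 and 0.458 FPKM on day 0 (log2 change 4.64, edgeR adjusted p 0.0382). That call was lost without WT day 7 replicate 1, at 1.503 (edgeR adjusted p 0.107). With all libraries 6.04% of all genes tested were called higher between days in WT. Between days in Cthrc1-/- none was called with all libraries, and 1 was without WT day 7 replicate 1: Irak4, a kinase of interleukin-1 receptor signalling, at 0.67 (SE 0.143, edgeR adjusted p 0.0285). Of all genes tested, 6.36% were called between these days in that fit.

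Signalling downstream of the cytokines was covered by 18 receptors and transducers of tumour necrosis factor and interleukin-6 and by 17 subunits and inhibitors of NF-kB. With all libraries none of the 18 was called in any of the 5 comparisons, and 13 of them were highest in WT day 7 replicate 1. Without that library 1 was called, Il6ra, the interleukin-6 receptor subunit, lower in Cthrc1-/- on day 0 (log2 change -1.77, edgeR adjusted p 0.0498, against -1.80 and 0.0579 with it). On day 0 that fit called 11.0% of all genes tested. Osm, which encodes the cytokine oncostatin M, was at 95.4, 1.86 and 2.19 FPKM in WT and 0.357, 1.74 and 0.811 FPKM in Cthrc1-/- on day 7 (log2 change -5.29, edgeR adjusted p 0.907, and -1.08 without WT replicate 1). Of the 17, 1 was called: Zfp36, which encodes an RNA-binding protein that destabilises cytokine messenger RNA, fell between days in WT. It was at 310.3, 330.1 and 338 FPKM on day 0 and 169, 94.5 and 126 FPKM on day 7 (log2 change -1.49, edgeR adjusted p 0.0400, and -1.72 with adjusted p 0.0380 without WT replicate 1). Ier3, an immediate early gene, was called lower on day 7 without that library in both genotypes, at -1.77 in WT and -1.48 in Cthrc1-/- (edgeR adjusted p 0.0189 and 0.0249), and had -0.036 and -1.53 with it (0.982 and 0.315). Of the 14313 genes tested, 1016 were called lower between days in WT with all libraries. Without WT day 7 replicate 1 there were 478 in WT and 320 in Cthrc1-/-.

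Nitric oxide and arginine metabolism was covered by 12 genes beside Nos2, of which 11 were tested. Between days in WT, 3 rose and 0 fell: the arginase gene Arg2 (log2 change 3.34), Ddah1 (2.46), which degrades inhibitors of nitric oxide synthases, and the arginine transporter gene Slc7a1 (1.29), with edgeR adjusted p of 0.0134, 0.0101 and 0.00356. All 3 were also called without WT day 7 replicate 1, at 2.16, 1.93 and 1.52. Of all genes tested, 6.04% were called higher between days in WT with all libraries and 5.01% without that library. With all libraries none of the 11 was called in the other comparisons. Without that library 3 were called higher in Cthrc1-/- on day 0: Ass1, which regenerates arginine (log2 change 2.48), Arg2 (1.99) and Gch1 (1.18), needed for a cofactor of nitric oxide synthases, with edgeR adjusted p of 0.0416, 0.0202 and 0.0227. Likewise 3 were called higher between days in Cthrc1-/-, Ddah1 (2.04), the endothelial synthase gene Nos3 (1.99) and Slc7a1 (0.73), with edgeR adjusted p of 0.00989, 0.0276 and 0.0260. In that comparison 3 of 5 endothelial markers were also called higher, and their part was not tested. The fit without WT day 7 replicate 1 called 11.0% of all genes tested between genotypes on day 0 and 6.36% between days in Cthrc1-/-. Arg1, the arginase that competes with Nos2 for arginine, was at 438.9, 23.0 and 7.45 FPKM in WT and 35.4, 5.38 and 15.4 FPKM in Cthrc1-/- on day 7. It was again highest in WT replicate 1, and its log2 change between genotypes was -3.27 with that library and 0.26 without it (edgeR adjusted p 0.907 and 1). In prostaglandin and leukotriene synthesis, 16 of 20 listed genes were tested. Ptges3 was called higher in Cthrc1-/- on day 0 (log2 change 0.46, edgeR adjusted p 0.0421), while 5 of the 16 had log2 changes above 0 and the median was -0.71. When WT day 7 replicate 1 was left out it was called again at 0.52, and 3 were called lower: Hpgd (-1.13), Pla2g4a (-0.89), a phospholipase that frees arachidonic acid, and Ptger3 (-0.85), with edgeR adjusted p of 0.0319, 0.0256 and 0.0453. The share of all genes called there was again 11.0%, against 5.78% with all libraries. The prostaglandin-degrading enzyme gene Hpgd and the receptor gene Ptger3 fell between days in WT (log2 changes -1.30 and -1.27, edgeR adjusted p 0.0347 and 0.0135), and neither was called without WT day 7 replicate 1 (adjusted p 0.0832 and 0.0517). With all libraries 1016 of the 14313 genes tested were called lower between days in WT.

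Other S100 genes and alarmin receptors numbered 18, of which 16 were tested. S100a3, a hair cuticle gene of the same chromosome 3 cluster, was at 0.849, 1.15 and 1.05 FPKM in WT and 7.12, 200.1 and 521 FPKM in Cthrc1-/- on day 0, and was the 1 gene of the list called higher (log2 change 7.72, SE 1.69, edgeR adjusted p 0.0371). Without WT day 7 replicate 1 it was called at 7.82, S100a14 was called higher (0.76) and S100b lower (-1.16), with edgeR adjusted p of 0.0288, 0.0260 and 0.0462. In that fit 11.0% of all genes tested were called on day 0, against 5.78% with all libraries. Between days in WT, 3 rose and 2 fell with all libraries: S100a3 (6.88), Cd33 (3.69) and Ager (0.94), S100b (-1.59) and S100a6 (-0.85), with edgeR adjusted p of 0.0245, 0.0408, 0.0353, 0.0195 and 0.0331. The calls of Cd33 (1.63), Ager (0.97) and S100b (-1.27) were lost without WT day 7 replicate 1, with edgeR adjusted p of 0.117, 0.0676 and 0.0608. S100a3 (7.39) and S100a6 (-0.96) were called there too, and Hmgb1 (0.52) was called higher and S100a4 (-1.85) and S100a10 (-0.96) lower. Of the 14313 genes tested, 864 were called higher and 1016 lower between days in WT with all libraries. Without WT day 7 replicate 1 these counts were 717 and 478. S100a6 fell between days in Cthrc1-/- (log2 change -1.07, edgeR adjusted p 0.0464, and -1.02 with 0.0141 without that library). In that comparison 86 of the 14313 genes were called lower with all libraries and 320 without WT day 7 replicate 1. Neither the toll-like receptor gene Tlr2 nor Tlr4 was called between genotypes on day 7, with log2 changes of -1.84 and -3.16 (edgeR adjusted p 0.907 for both) and -0.09 and -1.48 without WT replicate 1.

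Il1a and Il1b are overlapped on the opposite strand by the non-coding genes Gm14023 and Il1bos, which reached at most 0.857 and 0.940 FPKM. Whether the counting used strand is not given in the sources used here, so reads of each pair may not be separated.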

How the data were processed

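RNA sequencing was done on 12 mouse dermis samples in 4 groups of 3, grouped by genotype and day from the sample titles. The labels' protocols describe poly(A) selection, second-strand marking with dUTP and adapters with molecular identifiers. The submitters' processing notes name cutadapt 1.9, HISAT2 2.0.4, UMI-tools, StringTie 1.3.4d, DESeq2 and edgeR with the GRCm38 build, without saying which step each served or whether strand and identifiers were used in counting. The authors deposited a count and an FPKM value per gene and sample. An FPKM of 0.0001 stood for each count of 0 and was read as 0, and counts of 4 were 3.16 to 4.05 times as frequent as the mean of counts 3 and 5, so low counts are not single fragments. Unused value columns numbered 0.

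Symbols and positions came from GENCODE M21 by gene ID, naming 55141 of 55401 IDs, and Il36 genes were matched by their older symbols. The counts of all 12 samples entered the quasi-likelihood test of edgeR 4.0.16 in R 4.3.3 (TMM, 1 mean per group, no covariate, two-sided) for 14313 genes averaging 1 FPKM or more, in 5 comparisons, with Benjamini-Hochberg adjustment. The procedure was tested on simulated counts in which the spread between replicates was capped. That setting does not cover a library as far from its group as WT day 7 replicate 1. Alternatives were DESeq2 1.42.0, limma 3.58.1 on log2(FPKM + 1) and log2(FPKM + 0.1), other scalings and filters, counts divided by 4, a fit of only the groups compared, a replicate block and leaving out each library. Each edgeR p-value sets a difference between group means against the spread of samples within groups, estimated in 1 fit of all 4 groups.

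All 10 genes were named in every comparison. From each pathway or marker list, at most 4 called genes of largest log2 change were named, or, where none was called, at most the 2 of smallest p. Genes named for likeness were the 4 of highest correlation with Il1b, Nos2 and S100a8. Krt6b, Arg1, Ly6g, Cxcr2, Mpo, Elane and Tlr2 or Tlr4 values beyond that rule, and list genes called only without WT day 7 replicate 1, were chosen with values seen. The 10 genes and all lists were chosen with earlier results of these data known. Il1r2 is in both the interleukin-1 and the neutrophil list.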

Additional observations from a re-analysis of the deposited data

How the results depend on the processing

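Each comparison was recomputed under 10 alternatives (9 for the interaction) and with each of the 12 libraries left out. For the 10 genes, 444 of 470 values from the former kept direction and side of the threshold, 9 lost the call, 8 gained it and 9 reversed. With a library left out, 552 of 600 kept both, 14 lost the call, 8 gained it and 26 reversed. The cause was not tested where none is given.

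Of all genes, 827 were called between genotypes on day 0, against 2787 with DESeq2, 424 with filterByExpr, 275 without a filter and 19 with only the groups compared. On day 7 there were 3, against 62 with DESeq2 and 8 and 5 with limma on log2(FPKM + 1) and log2(FPKM + 0.1). Between days in WT there were 1880, against 3551 with DESeq2. In Cthrc1-/- there were 209, against 1409 with DESeq2, 775 and 773 with limma, 747 with total-count scaling and 89 with only the groups compared. For the interaction there were 2, against 681 with DESeq2, 4 and 1 with limma, and 1 with total-count scaling, filterByExpr or no filter. Leaving out 1 library gave 18 to 2146, 0 to 4, 527 to 3005, 5 to 911 and 0 to 242 calls in these 5 comparisons.

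Of the 10 genes, DESeq2 called 3 between genotypes on day 0, 1 on day 7, 2 between days in Cthrc1-/- and 1 for the interaction, where edgeR called 0. Between days in WT the count was 4, and 2 with limma at either pseudocount and with only the groups compared. Leaving out 1 library gave 0 to 2 on day 0, 0 to 0 on day 7, 1 to 6 between days in WT, 0 to 1 in Cthrc1-/- and 0 to 0 for the interaction.

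Reversed directions, none of them called, were these. Between genotypes on day 7, limma on log2(FPKM + 1) and log2(FPKM + 0.1) gave 0.41 and 0.44 for S100a8 and 0.27 and 0.28 for S100a9. Between days, it gave -0.046 and -0.071 for Tnf in WT and, at the smaller pseudocount, 0.016 for Il1rn in Cthrc1-/-. With 1 library left out, genes that reversed between genotypes on day 0 ranged over -0.95 to 0.16 for Il1b, -0.0046 to 0.80 for Il6 and -1.06 to 0.12 for Ptgs2. On day 7 they ranged over -5.79 to 0.55 for Nos2, -2.10 to 0.82 for Il1a, -2.61 to 0.17 for Il6, -0.75 to 0.49 for Tnf, -1.82 to 0.81 for S100a8, -2.27 to 0.81 for S100a9 and -4.63 to 0.25 for Csf3r, each upper value being that without WT replicate 1. The ranges between days in WT were -0.094 to 6.16 for Nos2, -0.92 to 1.77 for Il6, -0.79 to 0.35 for Tnf, -1.23 to 2.61 for Ptgs2 and -0.13 to 0.58 for Il1rn, those of Nos2 to Ptgs2 having their lower value without WT day 7 replicate 1, and in Cthrc1-/- they were -0.13 to 0.88 for Tnf and -0.49 to 0.25 for Il1rn. For the interaction they were -5.08 to 1.24 for Nos2, -4.30 to 0.24 for Il1b, -0.16 to 1.09 for Tnf, -3.76 to 0.15 for Ptgs2 and -3.98 to 0.86 for Csf3r.

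Replicate numbers recur in all groups, and deviations from group means were correlated between samples of different groups. Over 18 pairs with the same number the correlation was -0.23 to 0.43 (median 0.035), with 5 over 0.1. Over 36 pairs with different numbers it was -0.45 to 0.52 (median -0.018), with 6 over 0.1. The replicate block called 2 of the 10 genes between days in WT (S100a8 and S100a9) and 1 gene in all for the interaction, moved Il6 between genotypes on day 0 to -0.12 and Tnf between days in WT to -0.24, and shared 623 of 827 calls on day 0 and 1363 of 1880 between days in WT.

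Total-count scaling moved the median of all genes by up to 0.20 (WT days) and the share of higher calls from 46.0% to 75.5% there, from 58.9% to 86.9% in Cthrc1-/- and from 60.8% to 71.4% between genotypes on day 0. Levels of a few counts are not resolved at these depths.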

Other observations

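The balance within the interleukin-1 system differed between libraries. Il1rn FPKM divided by the sum of Il1a and Il1b FPKM was 0.0121 in WT day 7 replicate 1, the lowest of the 12, and 0.320 and 0.783 in WT day 7 replicates 2 and 3. In Cthrc1-/- on day 7 it was 0.0974, 0.0963 and 0.162, below both of the latter but above WT replicate 1, so the genotypes overlapped. On day 0 it was 0.724, 0.739 and 0.243 in WT and 0.206, 0.143 and 0.419 in Cthrc1-/-, and the genotypes overlapped.

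S100a9 FPKM divided by S100a8 FPKM lay between 1.88 and 2.0 in the 3 Cthrc1-/- day 7 libraries and at 1.93 and 1.93 in WT day 7 replicates 2 and 3, and it was 2.82 in WT day 7 replicate 1. On day 0 it was 2.57, 3.997 and 3.93 in WT and 2.61, 2.34 and 1.11 in Cthrc1-/-.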
